A study of Mus musculus with 6 samples.

Results

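The genes described here are 39 transcripts of the antibody-secreting plasma cell and of the endoplasmic reticulum (ER) that serves its secretion, chosen by symbol from the 23420 genes counted in every library. They comprise 9 plasma cell markers (Igj, Sdc1, Tnfrsf17, Eaf2, Prdm1, Xbp1, Mzb1, Derl3 and Fkbp11) and 30 genes of ER import, folding, ER-associated degradation and stress sensing. All 39 symbols were found and all passed the filter on low counts. The tested libraries were the 3 that carry the label TBK1-DKO, and they were set against 3 wild-type (WT) libraries; all came from total RNA of splenic dendritic cells of C57BL/6 mice. An age of 10 weeks stands in the sample characteristics and 8 weeks in the extraction protocol, for both groups alike. The sources used here do not spell out DKO, the alleles, any Cre driver or the gate by which the cells were isolated, and they leave unsaid how many animals gave the libraries. The p-values below thus rest on a spread among samples that may be technical.

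Plasma cells arise from activated B cells and turn most of their effort to secreting antibody. Blimp, the product of Prdm1, shuts the B cell programme, and the transcription factor XBP1 enlarges the ER. Nascent chains enter the ER through the SEC61 channel, lose their signal peptide, fold with the help of chaperones and oxidoreductases, and are sent back to the cytosol for degradation when they fail. The sensors IRE1 (Ern1), ATF6 and PERK raise this machinery when unfolded protein builds up, in any cell that secretes. In the spleen, plasma cells lie mainly in the red pulp, and plasmacytoid dendritic cells also express several of these genes, Mzb1 and Xbp1 among them.

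Between 45018389 and 47349648 reads fell in genes in the TBK1-DKO libraries and between 31077585 and 36145508 in the WT libraries, so every TBK1-DKO library was the deeper. TBK1-DKO 2 and WT 1 stood apart from their groups. The chi-square of reads over genes, per degree of freedom, was 38.3 for TBK1-DKO 2 against either other TBK1-DKO library and 2.47 between those, and 13.0 and 14.5 for WT 1 against the other WT libraries and 2.62 between those. No libraries agreed within sampling noise. Tbk1 itself had 83.9, 79.2 and 83.8 counts per 1000000 reads (CPM) in TBK1-DKO 1, 2 and 3, against 90.7, 80.8 and 83.7 CPM in WT 1, 2 and 3. It was not called (log2 fold change -0.05, SE 0.06; edgeR adjusted p = 0.63), and a count summed over the gene does not reveal an allele that lacks a part of it. The label was thus not borne out by the level of Tbk1, and below, TBK1-DKO stands for the label of a library, in which a gene rose or fell relative to the libraries with the WT label. The antigen presentation genes Cd74 (6374 CPM in TBK1-DKO and 6618 CPM in WT) and H2-Ab1 (2222 CPM in TBK1-DKO and 2357 CPM in WT) were abundant in both groups.

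The 9 plasma cell markers chosen here all rose in the TBK1-DKO libraries, while the ER genes divided. Of 7 further plasma cell genes, outside the 39, 2 were called up and 1 down (median 0.065). All 9 markers were called up, with a median log2 fold change of 0.74, and their groups did not overlap. Of the 30 ER genes, 13 were called up, 1 was called down and 16 were not called, with a median of 0.17. Over the 39 genes this made 22 up (56.4%), 1 down and 16 not called, by edgeR's quasi-likelihood test (Benjamini-Hochberg adjusted p, taken over the whole table, below 0.05). Among all 14388 genes tested, 13.7% were called up and 9.9% down, 23.6% in all, with a median of 0.00. The groups did not overlap in 29 of the 39 genes, against 41.1% of all genes tested. In 28 of these the TBK1-DKO libraries were the higher (background 21.5%) and in 1 the lower (background 19.5%).

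The count of markers was the same without any library, whereas that of the ER genes was not. Of the ER genes, 8 were called up without TBK1-DKO replicate 3, 8 without WT replicate 2 and 7 without WT replicate 3. Calls over all genes tested fell as well, from 23.6% with all libraries to 17.7%, 15.7% and 16.9% in these settings. In TBK1-DKO 1 and 3 against WT 2 and 3, all 9 markers and 19 ER genes were called up and 3 ER genes down, where 47.7% of all genes tested were called. These were the libraries that agreed best within their groups in these same data, so their spread is small by selection. The markers and the ER genes were not tested against each other as groups. Since each library is RNA of all cells isolated, more cells of a type and more RNA per cell cannot be told apart.

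**Figure D1:**
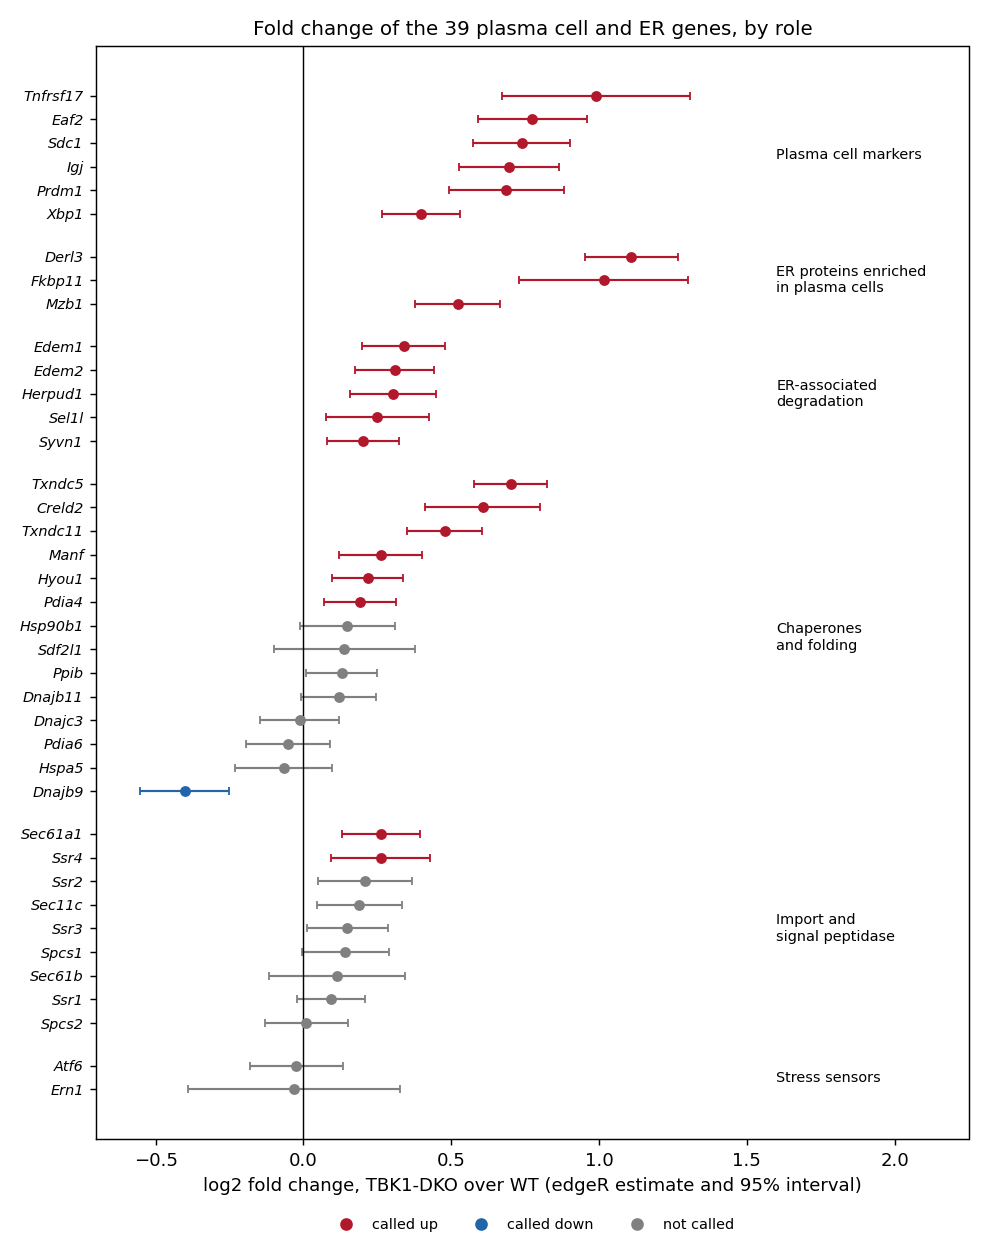
Each point is the log2 fold change of a gene, TBK1-DKO over WT, with its 95% interval from edgeR (3 libraries per group), sorted by role down the page; red points were called up, blue down and grey not called. The 9 plasma cell markers at the top lie between 0.40 and 1.11, the 5 degradation genes between 0.20 and 0.34, and the chaperones spread from 0.70 for Txndc5 to -0.40 for Dnajb9.

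Igj and Sdc1 define the plasma cell in this set. Igj (Jchain in GENCODE, GRCm38 chromosome 5, 88519809 to 88527891, minus strand, protein coding) encodes the J chain that links polymeric IgM and IgA. Its libraries held 1473, 1624 and 1469 CPM in TBK1-DKO 1, 2 and 3, against 1013, 927 and 880 CPM in WT 1, 2 and 3. Every TBK1-DKO library was thus above every WT library, with means of 1522 ± 88.5 CPM in TBK1-DKO and 940 ± 67.2 CPM in WT (SD, n = 3 each) and a fold of 1.62. Sdc1 (chromosome 12, 8771323 to 8793715, plus strand) encodes syndecan-1, the surface proteoglycan by which plasma cells are usually sorted. Its libraries held 28.0, 30.1 and 28.5 CPM in TBK1-DKO, against 15.9, 18.1 and 17.8 CPM in WT. The groups were well apart, and the log2 fold change of 0.74 (SE 0.07; edgeR adjusted p = 6.8e-05) was close to the 0.70 of Igj (SE 0.08; edgeR adjusted p = 1.1e-04). Per kilobase of exon, however, the levels were far apart: Igj reached 605 CPM per kb in TBK1-DKO and 373 in WT, and Sdc1 7.58 CPM per kb in TBK1-DKO and 4.54 in WT. Igj made up 73.6% of the summed CPM of the 9 markers in TBK1-DKO and 71.4% in WT. Without it the sum was 530 to 574 CPM in the TBK1-DKO libraries and 367 to 386 CPM in the WT libraries.

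Among the receptors and nuclear factors, Tnfrsf17 moved most. It encodes BCMA, the receptor that keeps plasma cells alive, and stood at 4.02, 4.79 and 4.47 CPM in the TBK1-DKO libraries, against 2.35, 2.50 and 1.81 CPM in the WT libraries. That is a log2 fold change of 0.99 (95% interval 0.67 to 1.31) at a low level in both groups. Eaf2, an elongation cofactor of B-lineage cells, had 18.8, 21.5 and 18.5 CPM in TBK1-DKO, against 11.2, 11.2 and 11.9 CPM in WT. Prdm1 had 37.6, 31.4 and 36.7 CPM in TBK1-DKO, against 23.4, 20.2 and 22.2 CPM in WT. Prdm1 was the only marker for which TBK1-DKO 2 was the lowest of its group; in the other 8 markers that library was the highest. Xbp1 rose least of the 9, with 216, 232 and 219 CPM in TBK1-DKO, against 177, 168 and 161 CPM in WT, a fold of 1.32 (log2 0.40, 95% interval 0.27 to 0.53). Gene counts do not separate spliced from unspliced Xbp1, the form that IRE1 makes from the form it acts on.

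The 3 markers that are themselves ER proteins rose as well, and the gene with the largest fold of the whole set was among them. Derl3 (chromosome 10, 75893413 to 75895941, plus strand) encodes a Derlin, a channel component through which misfolded proteins leave the ER. It stood at 31.1, 34.0 and 32.1 CPM in TBK1-DKO, against 14.2, 15.7 and 15.1 CPM in WT. The lowest TBK1-DKO library was thus above the highest WT library, at a fold of 2.16 (log2 1.11, SE 0.07; edgeR adjusted p = 5.2e-06). Fkbp11, a prolyl isomerase of the ER, had 6.56, 8.80 and 7.18 CPM in TBK1-DKO, against 3.88, 3.69 and 3.57 CPM in WT. Mzb1, a cochaperone of antibody assembly, rose less, with 195, 211 and 183 CPM in TBK1-DKO, against 138, 139 and 133 CPM in WT (log2 0.52, SE 0.06). GENCODE places a further gene model, SPATA24, over 696 bases of its transcript, so its level is uncertain; that symbol was not among those counted. Xbp1 and Mzb1, the markers with the smallest folds, were also the most abundant per kilobase after Igj, at 68.4 and 162 CPM per kb in TBK1-DKO and 51.9 and 113 CPM per kb in WT.

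**Figure D2:**
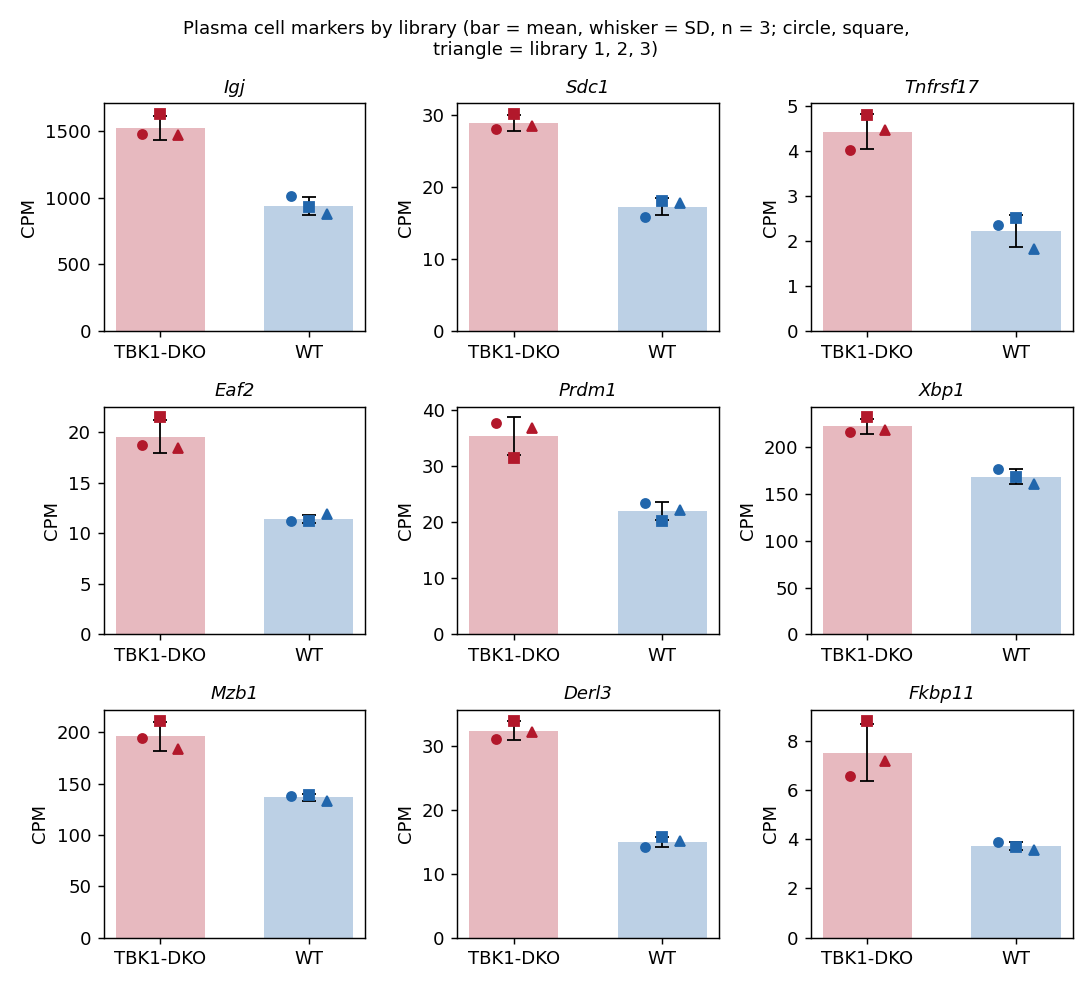
CPM of the 9 plasma cell markers (vertical axes, from 0) in the TBK1-DKO libraries (red, left) and the WT libraries (blue, right); bars are means, whiskers SD, and circle, square and triangle are libraries 1, 2 and 3. In every panel the lowest red point lies above the highest blue point, as for Sdc1 with 28.0 against 18.1 CPM.

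The 5 genes of ER-associated degradation among the 39 were all called up, by small amounts, where 13.7% of all genes tested were. Further genes of this pathway, outside the 39, gave Os9 (-0.00), Derl1 (0.01), Derl2 (0.05), Edem3 (0.02), Vimp (-0.02) and Selk (-0.09) in log2 fold change, and none of these 6 was called. Edem1 and Edem2, which mark misfolded glycoproteins for disposal, rose by 0.34 (SE 0.06) and 0.31 (SE 0.06) on the log2 scale. Edem1 had 293, 269 and 288 CPM in TBK1-DKO, against 238, 218 and 216 CPM in WT, and Herpud1, a scaffold of the ubiquitin ligase complex, had 178, 192 and 181 CPM in TBK1-DKO, against 137, 152 and 158 CPM in WT. These groups did not overlap. Syvn1, the ubiquitin ligase itself, had 195, 199 and 196 CPM in TBK1-DKO, against 164, 172 and 177 CPM in WT. Sel1l, its partner, had 172, 145 and 170 CPM in TBK1-DKO, against 146, 134 and 129 CPM in WT. TBK1-DKO 2 fell below WT 1 for Sel1l, the overlap of this role. Syvn1 kept its call only when the library left out was TBK1-DKO 2 (edgeR adjusted p = 0.055 to 0.12 for the others). Sel1l missed the threshold on leaving out TBK1-DKO 1, TBK1-DKO 3, WT 2 or WT 3 (edgeR adjusted p = 0.14 to 0.17). Summed over the 5 genes, the level was 890 to 916 CPM in the TBK1-DKO libraries and 741 to 748 CPM in the WT libraries.

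The folding genes were the most uneven role, with 6 of 14 up, 1 down and 7 not called. Of all genes tested, 13.7% were called up and 9.9% down. Txndc5 (chromosome 13, 38500079 to 38528824, minus strand), a disulfide isomerase with thioredoxin domains, rose within the range of the plasma cell markers, 5 of which rose more. It shares 5.0% of its exon bases with a gene on the opposite strand. It stood at 364, 383 and 363 CPM in TBK1-DKO, against 225, 234 and 224 CPM in WT, a fold of 1.63 (log2 0.70, SE 0.06; edgeR adjusted p = 1.6e-05). Its relative Txndc11 had 74.2, 71.1 and 72.2 CPM in TBK1-DKO, against 49.9, 51.7 and 54.5 CPM in WT. Creld2, a small ER protein induced by stress, had 57.4, 67.6 and 58.8 CPM in TBK1-DKO, against 36.1, 44.0 and 40.5 CPM in WT. These were the 3 ER genes whose fold reached that of Xbp1, the lowest of the markers, and no library of one group overlapped the other. Manf, a secreted ER factor (0.26), Hyou1, a large chaperone of the Hsp70 class (0.22), and Pdia4, a disulfide isomerase (0.19), rose by less on the log2 scale. Hyou1 and Pdia4 missed the threshold on leaving out TBK1-DKO 1, TBK1-DKO 3, WT 2 or WT 3 (edgeR adjusted p = 0.059 to 0.10 for Hyou1 and 0.072 to 0.17 for Pdia4), and Manf on leaving out WT 3 (edgeR adjusted p = 0.071).

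The most abundant chaperones did not pass the test with all 6 libraries. Hspa5 encodes BiP, the central chaperone of the ER lumen, and had 700, 748 and 682 CPM in TBK1-DKO, against 809, 720 and 701 CPM in WT. The groups overlapped, with a log2 fold change of -0.07 and a 95% interval of -0.23 to 0.10 that lies below the estimate of every marker. Hsp90b1, which encodes the chaperone GRP94, had 908, 941 and 880 CPM in TBK1-DKO, against 894, 800 and 768 CPM in WT (0.15, interval -0.01 to 0.31; edgeR adjusted p = 0.17). It was called up, however, in 3 of the alternatives: without WT 1 (0.21; edgeR adjusted p = 0.047), in TBK1-DKO 1 and 3 against WT 2 and 3 (0.18; edgeR adjusted p = 6.8e-08), and with length and GC offsets (0.17; edgeR adjusted p = 0.014). The comparison of TBK1-DKO 1 and 3 with WT 2 and 3 kept the libraries that agreed best within each group, and called 47.7% of all genes tested. With all 6 libraries, Pdia6 (-0.05), the BiP cochaperones Dnajc3 (-0.01), Dnajb11 (0.12) and Sdf2l1 (0.14), and the prolyl isomerase Ppib (0.13) were not called either. Hsp90b1 and Ppib share 10.3% and 25.0% of their exon bases with a gene on the opposite strand. As the strand setting is not given, it is unknown whether the reads of that gene were kept apart from theirs. Dnajb9 (chromosome 12, 44205559 to 44210326, minus strand), a BiP cochaperone that restrains IRE1, was the member that fell. It stood at 46.8, 47.4 and 45.5 CPM in TBK1-DKO, against 67.3, 59.6 and 57.8 CPM in WT, a log2 fold change of -0.40 (SE 0.07; edgeR adjusted p = 0.0018). Every TBK1-DKO library lay below every WT library, and the call held without any library (edgeR adjusted p at most 0.01).

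Import genes moved little, with 2 of 9 called up, where 13.7% of all genes tested were, although all 9 estimates were positive. The groups did not overlap in 7 of the 9, with the TBK1-DKO libraries the higher in each (background 21.5%). Sec61a1, the pore of the channel, had 220, 226 and 218 CPM in TBK1-DKO, against 173, 193 and 187 CPM in WT (log2 0.26, SE 0.06). A gene model that was not counted, Gm44170, shares 392 bases of its transcript. Ssr4, a subunit of the translocon-associated TRAP complex, had 69.1, 80.5 and 72.3 CPM in TBK1-DKO, against 57.0, 64.7 and 63.4 CPM in WT. Its call (edgeR adjusted p = 0.029) held only when TBK1-DKO 1 was the library left out, with an adjusted p of 0.056 to 0.087 for the others. The other TRAP subunits, Ssr1 (0.09), Ssr2 (0.21) and Ssr3 (0.15), Sec61b (0.11), and the signal peptidase subunits Spcs1 (0.14), Spcs2 (0.01) and Sec11c (0.19) were not called. Spcs1 shares 16.3% of its exon bases with a gene on the opposite strand and Spcs2 resembles an annotated pseudogene, so their counts are uncertain. Of these genes, Ssr3 was called up without WT replicate 1 (edgeR adjusted p = 0.046). With trends of transcript length and GC content removed, 6 of the 9 import genes were called up, where 35.1% of all genes tested were called. The sensors did not pass the test. Atf6 had 147, 127 and 149 CPM in TBK1-DKO, against 147, 144 and 139 CPM in WT. Ern1 had 48.9, 30.2 and 45.7 CPM in TBK1-DKO, against 46.7, 40.4 and 40.7 CPM in WT. TBK1-DKO 2 was the lowest library for both sensors, and without it and WT 1 Ern1 was called up (0.21, edgeR adjusted p = 1.2e-04). That setting kept the libraries that agreed best within each group, and called 47.7% of all genes tested. With all libraries the log2 fold change of Ern1 was -0.03 (edgeR adjusted p = 0.91).

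**Figure D3:**
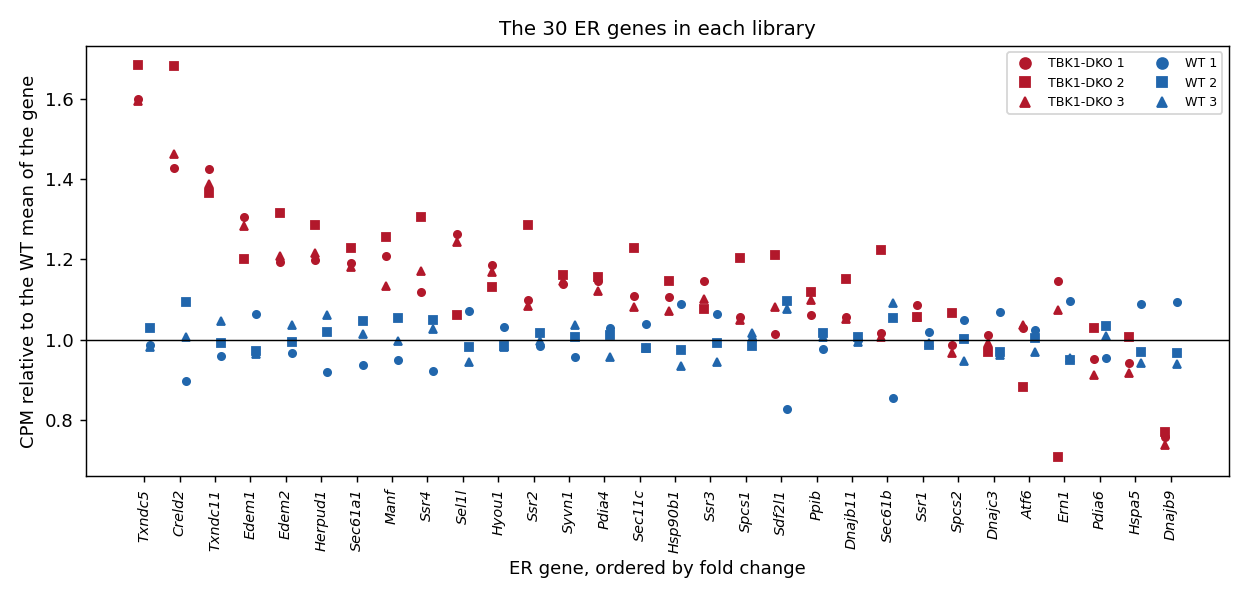
CPM of each of the 30 ER genes relative to its WT mean (vertical axis) in every library, TBK1-DKO in red left of WT in blue, with genes ordered by fold change. Txndc5, Creld2 and Txndc11 stand clear of the WT points at the left. Red and blue points do not mix in 20 of the 30 genes, against 41.1% of all genes tested. In 19 of these red is the higher (background 21.5%), and in 1, Dnajb9 at the right, the lower (background 19.5%). TBK1-DKO 2 (red square) was the highest TBK1-DKO library in 21 of the 30 genes.

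In summed level the rise was carried by few transcripts. Over the 39 genes the sum was 7520 to 7953 CPM in the TBK1-DKO libraries and 6159 to 6577 CPM in the WT libraries. Igj alone made up 43.3% of the difference between the group means and Txndc5 10.6%, and the 9 markers together 55.9%.

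The promoters are shown because genes with the same stress element differed in these libraries. XBP1 and ATF6 act through the ER stress element (ERSE, CCAAT and CCACG with any 9 bases between), its short form ERSE-II (ATTGG and CCACG with any 1 base between) and the unfolded protein response element (UPRE, TGACGTGG). No match overlapped another. RefSeq windows (GRCm38.p6) from 250 bases before to 50 after a start site were given for 32 of the 39 genes, 38 windows in all, and were searched on both strands. At least 1 of these motifs was found in 28.9% of the windows of these genes and in 0.822% of all 32851 windows, and ERSE in 18.4% and 0.119%. The genes were chosen by symbol for their roles in the ER and its stress response, so the higher share is no result of these libraries. Below are the promoters of Derl3, the gene with the largest fold, at chr10:75893148-75893447, and of Hspa5, which was not called, at chr2:34771840-34772139, both on the plus strand; capitals mark the fixed letters of ERSE, which in Derl3 lies on the opposite strand.
Derl3: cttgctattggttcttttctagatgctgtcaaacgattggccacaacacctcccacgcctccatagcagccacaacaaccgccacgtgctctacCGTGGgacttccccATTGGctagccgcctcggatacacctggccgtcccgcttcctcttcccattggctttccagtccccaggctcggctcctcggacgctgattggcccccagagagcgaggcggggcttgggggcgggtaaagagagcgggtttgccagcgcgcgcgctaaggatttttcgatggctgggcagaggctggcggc
Hspa5: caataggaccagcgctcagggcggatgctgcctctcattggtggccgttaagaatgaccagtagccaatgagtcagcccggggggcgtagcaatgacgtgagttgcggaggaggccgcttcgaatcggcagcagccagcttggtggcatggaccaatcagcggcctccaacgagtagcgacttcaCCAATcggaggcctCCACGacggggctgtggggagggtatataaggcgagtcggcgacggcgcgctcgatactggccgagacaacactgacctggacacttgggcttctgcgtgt

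The nearest base of ERSE lay 138 bases before the start site in Derl3 and 47 bases before it in Hspa5. Shorter windows, written on the strand of the gene with the fixed letters of the match in capitals, show the same element in Creld2 (chr15:88819505-88819553, called up), Syvn1 (chr19:6046517-6046565, called up) and Hsp90b1 (chr10:86705623-86705671 and chr10:86705518-86705566, minus strand, not called), ERSE-II in Herpud1 (chr8:94386362-94386402, called up), and UPRE in Txndc5 (chr13:38528030-38528067) and Txndc11 (chr16:11134612-11134649), both on the minus strand and both called up. In Creld2 and in the proximal match of Hsp90b1 the element lies on the opposite strand. The windows at other start sites of Txndc5 and Txndc11 held no match.
Creld2: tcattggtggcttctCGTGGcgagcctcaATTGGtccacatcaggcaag
Syvn1: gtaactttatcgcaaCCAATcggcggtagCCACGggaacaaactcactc
Hsp90b1, distal match: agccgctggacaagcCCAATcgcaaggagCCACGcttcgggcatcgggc
Hsp90b1, proximal match: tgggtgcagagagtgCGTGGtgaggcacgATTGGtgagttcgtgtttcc
Herpud1: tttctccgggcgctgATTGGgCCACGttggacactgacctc
Txndc5: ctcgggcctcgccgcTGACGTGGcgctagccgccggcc
Txndc11: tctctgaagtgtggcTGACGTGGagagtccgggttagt

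The calls of genes with and without a motif are given as a description, with no test. Among all genes tested, 13.7% were called up and 9.9% down. Of the 11 genes with a match, 6 were called up and 5 were not called (Hspa5, Hsp90b1, Dnajb11, Dnajc3 and Pdia6), with a median log2 fold change of 0.20. Of the 21 genes with a window and no match, 12 were called up, 1 down and 8 not called, with a median of 0.25. Igj, Sdc1, Tnfrsf17, Eaf2, Prdm1, Xbp1 and Fkbp11, all markers called up, were among them. Among the ER genes alone, 5 of 10 with a match were called up (median 0.17). Without a match, 5 of 14 ER genes were called up and 1 down (median 0.14). A match is a run of letters in a window, not a bound site, and its absence says nothing of the factor.

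Further genes of the same pathways gave mixed calls. Of 7 further plasma cell genes, 2 rose, 1 fell and 4 were not called. Those that rose were Bhlha15, the secretory transcription factor MIST, at 11.4, 11.9 and 12.6 CPM in TBK1-DKO, against 6.87, 5.61 and 6.57 CPM in WT (log2 0.92, SE 0.10), and Ell2, an elongation factor that favours secreted antibody transcripts, at 85.9, 78.0 and 85.5 CPM in TBK1-DKO, against 58.6, 56.7 and 54.8 CPM in WT (log2 0.55, SE 0.06). Slamf7 fell by 0.25 (edgeR adjusted p = 0.048), and missed the threshold on leaving out TBK1-DKO 1, TBK1-DKO 3, WT 1 or WT 2 (edgeR adjusted p = 0.051 to 0.14). Irf4 (0.07) and Pou2af1 (-0.06), shared with B cells and dendritic cells, were not called, nor were Glcci1 (-0.25) and Tnfrsf13b (0.085). The groups did not overlap in 5 of the 7 genes. The TBK1-DKO libraries were the higher in 2 (background 21.5%) and the lower in 3 (background 19.5%), Slamf7, Glcci1 and Pou2af1. Immunoglobulin constant genes were not analysed here. Of 25 further folding, glycosylation and degradation genes, 4 rose, 2 fell and 19 were not called (median 0.05). The largest called change was that of Pdia5 (-0.48), and the 2 most abundant of this list, Calr (-0.01) and Pdia3 (-0.12), were not called. These shares are near those of all genes tested, of which 13.7% rose and 9.9% fell. The count moved both ways with the libraries used: 0 rose without TBK1-DKO 1, WT 2 or WT 3 and 1 without TBK1-DKO 3, and 6 rose and 5 fell without TBK1-DKO 2. In TBK1-DKO 1 and 3 against WT 2 and 3, 9 rose and 9 fell, where 47.7% of all genes tested were called. Among 21 further import and export genes, 2 rose, Lman1 (0.30) and Srprb (0.20), 2 fell, Mcfd2 (-0.25) and Spcs3 (-0.21), and 17 were not called (median 0.03), again near the shares of all genes tested. Of the rises Lman1 alone was called on leaving out any library but TBK1-DKO 2, and without that library 3 genes rose and 4 fell. Spcs3 missed the threshold on leaving out TBK1-DKO 1, TBK1-DKO 3 or WT 2 (edgeR adjusted p = 0.052 to 0.078). Of 7 genes of the PERK and ATF4 arm edgeR called 0, as did DESeq2 and limma-voom, and 1 had an unadjusted p under 0.05, Ppp1r15b (log2 0.17; edgeR adjusted p = 0.079). Ddit3, the factor CHOP, averaged 15.7 ± 2.79 CPM in TBK1-DKO and 14.4 ± 0.154 CPM in WT (SD, n = 3 each). Without TBK1-DKO 2 Ppp1r15b was called up (0.20; edgeR adjusted p = 0.0056). In TBK1-DKO 1 and 3 against WT 2 and 3, and with length and GC offsets, 1 gene of this arm rose, again Ppp1r15b, and 1 fell.

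Markers of several other cell types also differed between the groups. B cell markers, of the lineage from which plasma cells arise, fell in 6 of 12 cases and rose in 0, where 9.9% of all genes tested fell, with a summed level of 4057 to 4150 CPM in TBK1-DKO and 4785 to 4907 CPM in WT. In TBK1-DKO 1 and 3 against WT 2 and 3, 10 of the 12 fell, where 47.7% of all genes tested were called in either direction. Plasmacytoid dendritic cell markers fell in 9 of 10 cases and rose in 0 (1240 to 1276 CPM in TBK1-DKO and 1583 to 1592 CPM in WT), Siglech to 135 CPM in TBK1-DKO, against 221 CPM in WT. The lists of neutrophils and their precursors (12 of 12 up), proliferation (12 of 12 up) and erythroid cells (6 of 6 tested up) rose, where 13.7% of all genes tested did. Neutrophil markers summed to 6139 to 7091 CPM in TBK1-DKO and 2538 to 2806 CPM in WT, proliferation genes to 2167 to 2557 CPM in TBK1-DKO and 1296 to 1523 CPM in WT, and erythroid markers to 2504 to 2589 CPM in TBK1-DKO and 1367 to 1515 CPM in WT. Dendritic cell markers rose in 1 and fell in 4 of 10 cases (10090 to 11580 CPM in TBK1-DKO and 10520 to 11930 CPM in WT). No marker of these lists was at 0 reads in any library except the globin symbols of the erythroid list, Hba-a1 with 1 read in TBK1-DKO 2 alone and Hbb-b1 with 0 reads in all libraries. The part of these cells in the changes above was not tested.

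**Figure D4:**
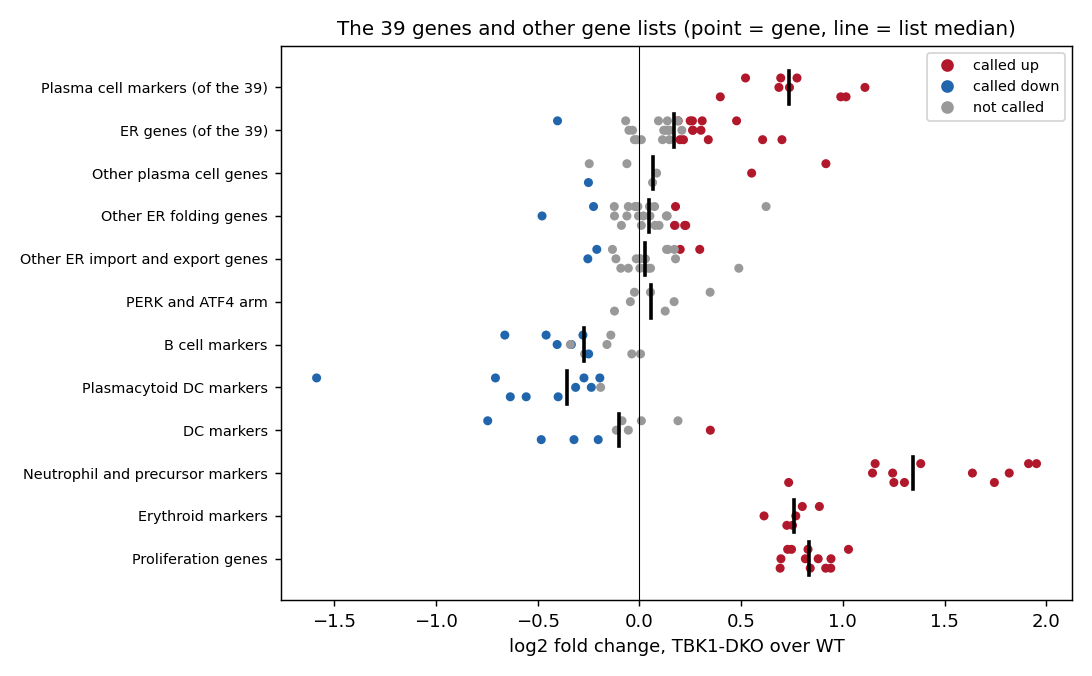
Log2 fold change, TBK1-DKO over WT, of every tested gene in the 39 genes and in 10 other lists (red called up, blue called down, grey not called); the black line is the list median. The plasma cell markers (median 0.74) lie near the proliferation genes (0.84) and the erythroid markers (0.76) and below the neutrophil markers (1.34), while B cell (-0.27) and plasmacytoid dendritic cell markers (-0.36) lie to the left of 0.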

How the data were processed

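The authors deposited raw read counts by gene symbol, as whole numbers, for each of the 6 libraries. The submitters' processing notes name DESeq2, HTSeq, TopHat and TopHat2 and the build mm10. Their versions, the strand setting and the gene models used are not given here. Summary rows naming no gene (8.20% to 10.7% of records) stayed out of library sizes and tests.

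Counts were tested with edgeR 4.0.16 in R 4.3.3: filterByExpr (minimum count 10, 14388 genes kept), TMM scaling, robust dispersions, and the quasi-likelihood F test of TBK1-DKO over WT without covariates, with Benjamini-Hochberg adjustment over all genes and a threshold of 0.05. The script was tested on simulated data. Standard errors (SE) come from the F statistic, intervals are 95%, and CPM are counts per 1000000 effective reads. Levels per kilobase use GENCODE M21 exons (GRCm38, the assembly of mm10), where 39 of 39 genes matched, 1 by synonym.

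The genes and lists were chosen with earlier results of these data known, and no list was tested. By the rule for named genes, any of the 39 genes could be named, with library values for those of smallest p in each role and for Sdc1 and Igj, and up to 3 genes of smallest p from each further list; a few further genes were named after their values were seen. Replicate numbers were not taken to pair the libraries. The alternatives were DESeq2 1.42.0, limma-voom (limma 3.58.1), RLE factors, no filter, the replicate block, removal of the J chain gene, Igll1 and haemoglobin genes, length and GC offsets, and libraries left out. That removal took out no immunoglobulin constant gene. Figures used matplotlib 3.10.9.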

Additional observations from a re-analysis of the deposited data

How the results depend on the processing

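The 9 markers were called up under all 14 alternatives, except that Igj was itself removed in one of them, which left 8 of 8, and Dnajb9 was called down in every one. Over the 39 genes, 490 of the values under alternatives kept their direction and call. With the sign kept, 24 lost a call and 15 gained one, and 16 changed sign, whatever their call. Among those that changed sign, Sec61b and Ern1 without TBK1-DKO 2 and WT 1 together also gained a call. Leaving out each library gave 7 to 13 ER genes called up, 16 to 22 of the 39 genes called up, and 1336 to 2270 genes up and 972 to 2082 down over the whole table. TBK1-DKO 1 and 3 against WT 2 and 3 gave 3 of the 39 genes down (Dnajb9, Pdia6 and Sec61b), and 3500 genes up and 3397 down over the whole table. With length and GC offsets 2381 genes were up and 2625 down, in place of 1978 and 1424; the cause was not tested. No called gene among those named changed sign. Signs turned in genes that were not called. Without TBK1-DKO 2 and WT 1 together these were Dnajc3 (0.042), Sdf2l1 (-0.066), Sec61b (-0.095, called down), Spcs2 (-0.01), Ern1 (0.211, called up), Atf6 (0.053) and Ddit3 (-0.047). With length and GC offsets it was Dnajc3 (0.007), and with no filter Spcs2 (-0.002). Over the libraries left out in turn, Dnajc3 ranged over -0.056 to 0.037, Sec61b over -0.006 to 0.166, Spcs2 over -0.056 to 0.046, Ern1 over -0.163 to 0.131, Atf6 over -0.063 to 0.026 and Ddit3 over -0.05 to 0.208. The replicate block gave 24 of the 39 genes up and 1 down, and called Ppp1r15b up. The deviations of same-numbered libraries correlated at 0.18, 0.15 and -0.07, and TBK1-DKO 3 correlated best with WT 1 (0.12). As TBK1-DKO 2 and WT 1 stood apart from their groups, these values cannot decide whether the numbers pair the libraries. Reads are not independent molecules without molecular identifiers. Ppib, Spcs1, Hsp90b1 and Txndc5 share 25.0%, 16.3%, 10.3% and 5.0% of their exon bases with a gene on the opposite strand. Mzb1 and Sec61a1 share 696 and 392 transcript bases with a gene model that was not counted, and Spcs2 resembles an annotated pseudogene. The levels of all these genes are thus uncertain.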
